A study of Schizosaccharomyces pombe with 9 samples.

Results

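The flocculin gene pfl8 and the gene of its activator, mbx2, were followed across 3 strains of the fission yeast Schizosaccharomyces pombe, with 3 Affymetrix arrays per strain. Each gene had 1 probe set, so these were 2 of the 2937 S. pombe probe sets that could be named. The probe set of mbx2 (1775426_at) carried that symbol. The probe set of pfl8 (1778799_at) was listed under the older symbol fta5 and was matched to pfl8 by its gene number. SD1 was the strain SPQ-01 with rpl32-1 deleted, SD2 was SPQ-01 with rpl32-2 deleted, and WT was SPQ-01 itself, the control. The deleted genes are the paralogs for ribosomal protein L32, rpl3201 and rpl3202 in the current annotation. All 3 strains grew in YEPD, a rich glucose medium, at 30 °C to an OD600 of 5.0, which the labels call log phase. The markers and further genotype of SPQ-01, its mating type and the number of independent deletion clones are not given in the sources used here.

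Flocculation is the clumping of yeast cells through glycoproteins on their walls. In fission yeast these flocculins bind galactose residues on the surface glycans of neighbouring cells, so that galactose added to the medium disperses the clumps. The flocculin family comprises gsf2 (also called pfl1) and the pfl genes, of which pfl8 encodes a predicted cell surface glycoprotein. Mbx2 is a transcription factor of the MADS-box family that switches on flocculin genes, and cells forced to make more of it flocculate without mating. The gene was also named pvg4, from a screen for cells lacking pyruvate on their surface galactose. The series title refers to such non-sexual flocculation, and the comparisons below ask how far the transcripts of the adhesin and of its activator differed between the deletion strains and the control.

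Values are on the log2 scale as deposited, so a difference of 1 is a doubling, and with arrays it is their number, 3 per strain, that limits the precision. The labels call the arrays of a strain biological replicates, without saying how the cultures were separated, and p-values measure the spread between these arrays. Background was gauged on each array by its probe sets for the budding yeast S. cerevisiae, as the level that 95% of them did not exceed, and this level lay between 5.13 and 5.26. The deleted genes followed the labels: rpl3201 averaged 5.04 ± 0.94 in SD1 (SD, n = 3), against 14.13 ± 0.29 in WT, and rpl3202 averaged 8.01 ± 0.83 in SD2, against 14.24 ± 0.13 in WT. Signal above background remained for rpl3201 on 1 of 3 SD1 arrays and for rpl3202 on all 3 SD2 arrays (7.25 to 8.89). A sign of RNA quality is how far the 3' end of 18S rRNA reads above its 5' end, and this log2 difference set the deletions apart from WT. It ran from -0.44 to -0.33 in SD1, from -0.52 to -0.29 in SD2 and from -1.53 to -0.90 in WT. The same measure on the large-subunit rRNA also set the deletions apart, at 0.17 to 0.62 in SD1, 0.13 to 0.37 in SD2 and -0.47 to -0.08 in WT. On ACT1 mRNA it overlapped, running from 0.27 to 0.33 in SD1, from 0.30 to 0.39 in SD2 and from 0.23 to 0.39 in WT. The part of RNA quality in the results below was not tested.

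The adhesin gene pfl8 was higher in both deletion strains. Its log2 values were 9.72, 9.12 and 10.05 on the 3 SD1 arrays, 8.96, 9.70 and 9.32 on the 3 SD2 arrays, and 7.40, 7.37 and 7.77 on the 3 WT arrays. Every SD1 and SD2 array lay above every WT array, and the lowest deletion array (SD2 array 1) stood well over the highest control (WT array 3). The SD1 and SD2 arrays overlapped. All 9 values were above background, by 3.83 to 4.88 in SD1 and SD2 and by 2.20 to 2.55 in WT, so the pfl8 probe set gave signal in the control as well.

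The activator gene mbx2 showed the same order of strains. Its log2 values were 9.15, 8.90 and 9.81 in SD1, 8.68, 9.05 and 9.43 in SD2, and 6.63, 7.45 and 7.32 in WT. Again no deletion array overlapped a WT array, while SD1 and SD2 overlapped each other. WT array 1 was the lowest of all 9 and lay 1.45 above background, and the other 8 arrays lay 2.10 to 4.63 above it. The signal of mbx2 was therefore above background in every culture. That yardstick does not measure what a probe set reads without its own transcript. The deleted rpl3202 still read 7.25 to 8.89 in SD2, and the WT values of mbx2 and pfl8 lay at or below such levels. How far signal of this kind limits the folds below was not tested. Because RNA came from whole cultures, more expressing cells and more RNA per cell cannot be told apart.

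**Figure D1:**
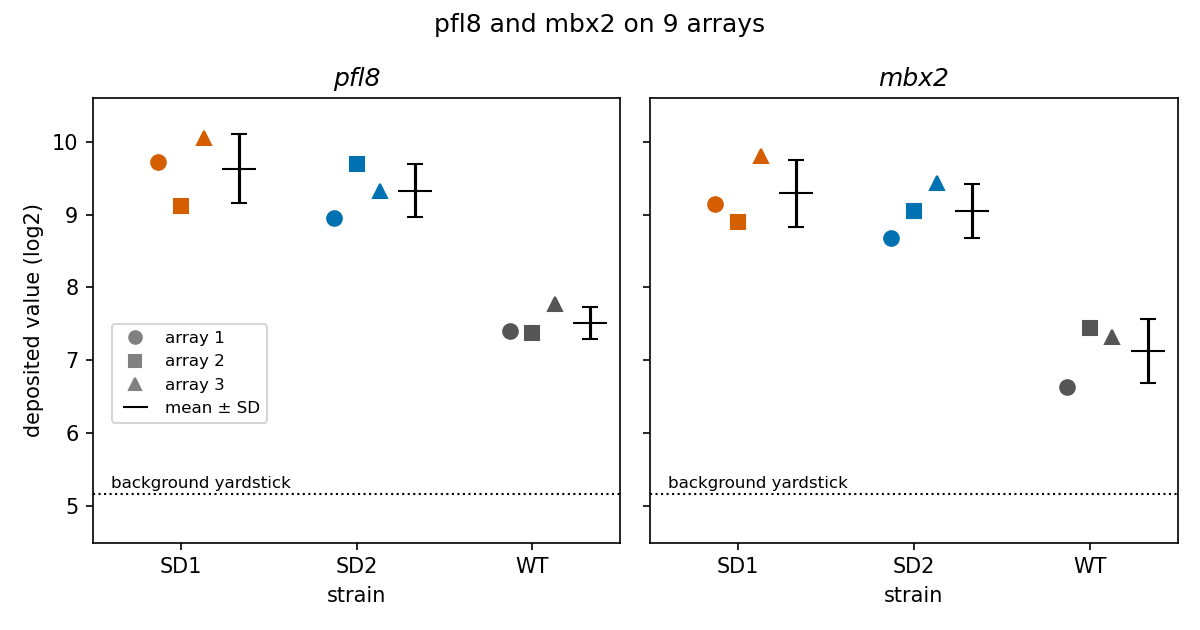
Deposited log2 value (y axis) of pfl8 and mbx2 on each array, by strain (x axis); symbols give the array number, bars the mean ± SD of 3 arrays, and the dotted line the mean background yardstick of 5.17. All 6 SD1 and SD2 arrays lie above all 3 WT arrays for both genes.

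For SD1 against WT, pfl8 averaged 9.63 ± 0.47 in SD1 and 7.51 ± 0.22 in WT (SD, n = 3 each). It rose 4.34-fold, a log2 change of 2.12 ± 0.26 (SE) with a 95% interval of 1.53 to 2.71 and a limma adjusted p of 0.000366. The gene mbx2 averaged 9.29 ± 0.47 in SD1 and 7.13 ± 0.44 in WT. It rose 4.46-fold, with a log2 change of 2.16 ± 0.30, an interval of 1.48 to 2.84 and a limma adjusted p of 0.000654. Both genes thus passed in the upward direction, where 19.5% of all S. pombe probe sets passed. A full separation of the 3 SD1 arrays above the 3 WT arrays was found for 23.3% of probe sets, so being called or separated did not by itself set the genes apart. Their size of change did rank high: mbx2 stood 9th and pfl8 13th of the 2937 probe sets from the top, and 5.38% of probe sets were called with a rise of at least 2-fold. Because pfl8 and mbx2 were chosen with earlier results of these data known, their ranks here and below are descriptions, not tests.

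For SD2 against WT, pfl8 averaged 9.33 ± 0.37 in SD2 and 7.51 ± 0.22 in WT. It rose 3.52-fold (log2 1.82 ± 0.26, interval 1.23 to 2.40, limma adjusted p = 0.00135). The gene mbx2 averaged 9.05 ± 0.38 in SD2 and 7.13 ± 0.44 in WT, and rose 3.79-fold (log2 1.92 ± 0.30, interval 1.24 to 2.6, limma adjusted p = 0.00205). In the upward direction 17.6% of S. pombe probe sets passed, and 23.1% had all 3 SD2 arrays above all 3 WT arrays. By size mbx2 ranked 4th and pfl8 6th of 2937, where 3.30% of probe sets were called at 2-fold or more. SD1 and SD2 were set against the same 3 WT arrays, so these are not separate tests of the control level.

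Arrays numbered alike shared exactly equal values, by far the most in number 1, and those numbered differently shared almost none. Each number held 1 array per strain, so the differences were also taken within each number. For pfl8 the SD1 minus WT difference was 2.31, 1.75 and 2.29 within numbers 1, 2 and 3, and the SD2 minus WT difference was 1.56, 2.33 and 1.56. For mbx2 the SD1 differences were 2.53, 1.46 and 2.49, and the SD2 differences were 2.05, 1.60 and 2.11. All 12 differences were positive, from 2.74-fold for mbx2 in SD1 number 2 to 5.76-fold for mbx2 in SD1 number 1. Number 2 gave the smallest SD1 difference for both genes and, for pfl8, the largest SD2 difference.

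SD2 was set against SD1 to ask whether the paralogs differed in their effect on the adhesin and its activator. For pfl8 the means were 9.33 in SD2 and 9.63 in SD1, a log2 difference of -0.30 ± 0.26 with an interval of -0.89 to 0.28 (limma adjusted p = 0.766). For mbx2 they were 9.05 in SD2 and 9.29 in SD1, a difference of -0.24 ± 0.30 with an interval of -0.92 to 0.45 (limma adjusted p = 0.897). Neither passed, and the arrays of SD2 and SD1 overlapped for both genes. As SD2 over SD1 ratios the intervals run from 0.539 to 1.22 for pfl8 and from 0.529 to 1.36 for mbx2, so these arrays leave room for SD1 levels nearly 2-fold above those of SD2. The sign for mbx2 also rested on 1 array, since without SD1 array 3 the difference was 0.02. In this comparison 0.17% of probe sets passed in either direction (5 probe sets by limma, with 334 at an unadjusted p under 0.05). Among the 5 were the deleted genes themselves, rpl3201 at 9.81 ± 0.41 and rpl3202 at -6.27 ± 0.34. The count of probe sets that passed was 25 with the array number as a block and 10 without WT array 2.

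Over both deletions together, pfl8 was 3.91-fold higher (mean of SD1 and SD2 9.48 against 7.51 in WT, log2 1.97 ± 0.22, limma adjusted p = 0.000244). The gene mbx2 was 4.11-fold higher (9.17 against 7.13, log2 2.04 ± 0.26, limma adjusted p = 0.000400). An exact two-sided permutation test of the 6 deletion arrays against the 3 WT arrays gave p = 0.0119 for each gene, the smallest value its 84 arrangements allow, and 0.0179 after Benjamini-Hochberg adjustment over the 3 such tests made. A complete separation of the 6 arrays above the 3 was found for 20.0% of S. pombe probe sets, and 21.3% were called higher in this contrast. In it mbx2 ranked 3rd and pfl8 5th by size.

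**Figure D2:**
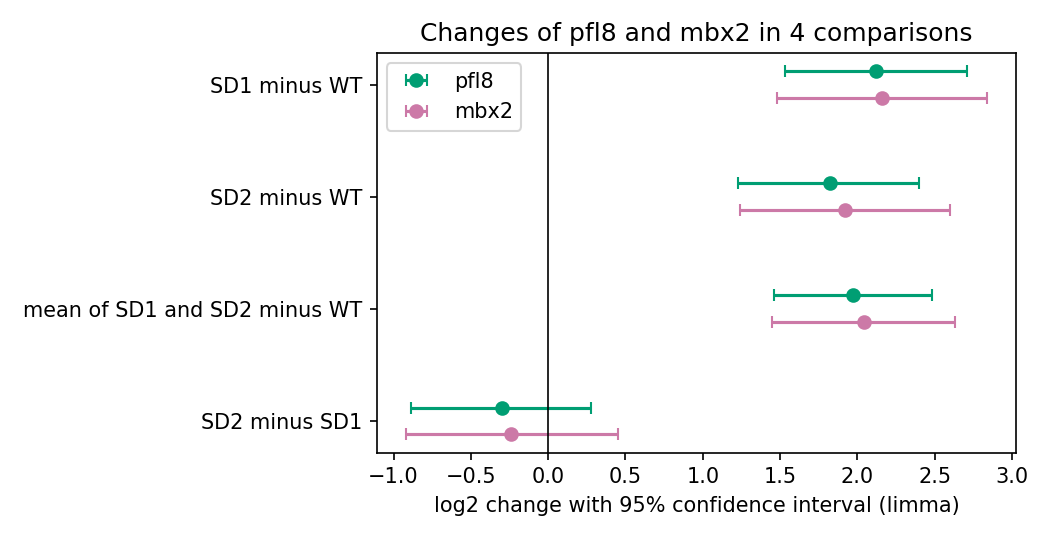
Log2 change (x axis) of pfl8 and mbx2 in 4 comparisons (y axis), as points with 95% confidence intervals from limma. The intervals of the 3 comparisons with WT start at 1.23 or higher and those of SD2 minus SD1 include 0.

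The activator and the adhesin changed by similar amounts. The value of mbx2 minus that of pfl8 on the same array was -0.56, -0.22 and -0.25 in SD1, -0.28, -0.65 and 0.10 in SD2, and -0.78, 0.08 and -0.45 in WT. These values overlapped across all 3 strains, with means of -0.34 ± 0.19 in SD1, -0.28 ± 0.38 in SD2 and -0.38 ± 0.43 in WT (SD, n = 3 each). Only the change of this quantity between strains is meaningful, because signals of different probe sets are not on a common scale. The rise of mbx2 exceeded that of pfl8 by 0.07 in log2 terms (exact two-sided permutation p = 0.762 over 84 arrangements, also 0.762 after adjustment). The sign of that small difference turned without WT array 1 (-0.13) or SD2 array 3 (-0.01). Such a p does not show that both genes changed by the same amount.

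Replicates of both genes scattered more than most. The pooled SD within strains was 0.368 for pfl8 and 0.429 for mbx2, against a median of 0.143 over all S. pombe probe sets, which placed them above 93.5% and 95.8% of probe sets. Ranked by p instead of by size, pfl8 stood at 194 and mbx2 at 289 of 2937 in SD1 against WT, and at 169 and 215 in SD2 against WT. Large changes with wide replicate scatter describe both genes. The calls against WT held when any 1 of the 9 arrays was left out, with log2 changes between 1.91 and 2.37 for pfl8 and between 1.90 and 2.35 for mbx2 in SD1. In SD2 they ran between 1.63 and 2.00 for pfl8 and between 1.67 and 2.11 for mbx2.

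**Figure D3:**
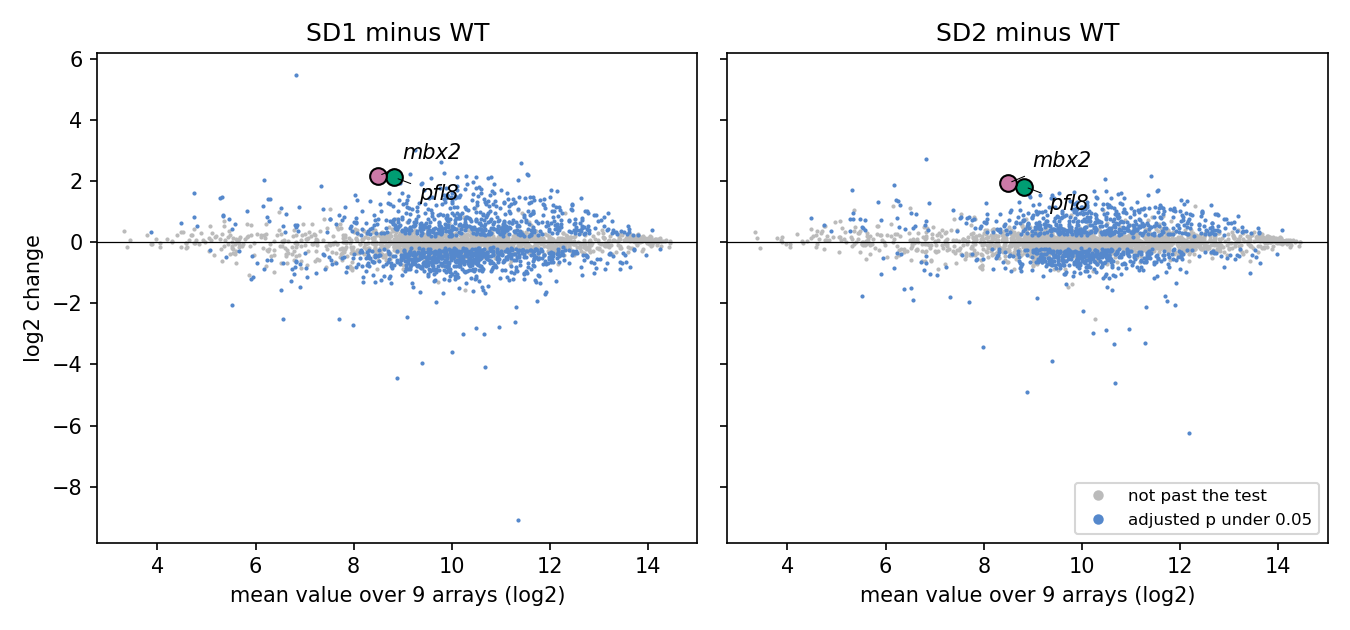
Log2 change against WT (y axis) by mean log2 value over the 9 arrays (x axis) for the 2937 S. pombe probe sets, with SD1 on the left and SD2 on the right; blue points passed an adjusted p under 0.05. Both genes lie near the upper edge at middle signal, at 2.12 and 2.16 in SD1 and at 1.82 and 1.92 in SD2.

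Few other adhesin genes could be read. Of 10 further flocculin and adhesin genes listed, 2 had a named probe set, both for agglutinins that hold mating partners together. The flocculin genes gsf2, pfl2, pfl3, pfl4, pfl5, pfl6, pfl7 and pfl9 were not analysed here. The M cell agglutinin gene mam3 had means of 9.01 ± 0.35 in SD1, 8.93 ± 0.26 in SD2 and 9.59 ± 0.10 in WT. It fell by 0.58 ± 0.19 in log2 terms in SD1 (limma adjusted p = 0.0322) and by 0.66 ± 0.19 in SD2 (0.0257). The SD1 call ended without SD1 array 1, WT array 2 or WT array 3, and the SD2 call without SD2 array 1 or 3 or WT array 2 or 3, at adjusted p-values up to 0.10 and 0.0885 and with changes of -0.71 to -0.38 and -0.78 to -0.52 over the arrays left out. The P cell agglutinin gene map4 was at -0.23 ± 0.094 in SD1 and -0.20 ± 0.094 in SD2 and did not pass, though with the array number as a block it passed in SD1 (limma adjusted p = 0.0388). Of the 2 genes 0 rose and 1 fell in each deletion, against 19.5% of probe sets higher and 23.7% lower in SD1 and 17.6% and 14.3% in SD2. Unlike pfl8, both measured mating agglutinins therefore had lower means in the deletion strains than in WT.

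Transcripts that tell the mating types apart moved too. The P-factor pheromone gene map2, expressed in P cells, rose by 1.11 ± 0.13 in SD1 and by 0.96 ± 0.13 in SD2, while map3, the receptor for M-factor, was at 0.00 ± 0.12 in SD1 and 0.06 ± 0.12 in SD2. All 5 M cell markers (mfm1, mfm2, mfm3, mam1 and mam2) fell in SD1 and 2 of 5 fell in SD2, where 23.7% and 14.3% of all S. pombe probe sets were called lower. The M-factor transporter gene mam1 fell by 1.66 ± 0.11 in SD1 and by 1.12 ± 0.11 in SD2. Summed over the list, M markers ran from 11.30 to 12.16 in SD1, from 11.93 to 12.85 in SD2 and from 12.57 to 13.45 in WT on the log2 scale. P markers ran from 8.22 to 8.43 in SD1, from 8.18 to 8.40 in SD2 and from 7.88 to 8.11 in WT. The M sums of SD2 and WT overlapped. They lean on mfm2, the brightest M marker, which averaged 12.43 in WT against 10.74 for mam1, the next. In SD2 mfm2 did not pass (limma adjusted p = 0.339). No marker of either list was at background on any array, and their part in the changes of pfl8 and mbx2 was not tested.

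The other MADS-box genes had smaller changes than mbx2, a difference that was not tested. The gene mbx1, whose product acts with forkhead factors on cell cycle genes, rose 1.47-fold in SD1 (log2 0.56 ± 0.14, limma adjusted p = 0.0127) and was at 0.28 ± 0.14 in SD2 (adjusted p = 0.170). The gene map1, which encodes an activator of P cell genes, was at -0.18 ± 0.14 in SD1 and -0.02 ± 0.14 in SD2 and passed in neither. The median of these 2 genes was 0.19 in SD1 and 0.13 in SD2.

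Among 14 measured regulators of flocculation other than mbx2, 0 rose in either deletion. In SD1 7 fell and 7 did not pass, and in SD2 5 fell and 9 did not pass, beside 23.7% and 14.3% of all S. pombe probe sets. With the array number as a block 10 fell in SD1 and 7 in SD2, where 969 and 694 of all 2937 S. pombe probe sets were called lower. Leaving out 1 array gave 6 or 7 fallen in SD1 and 3 to 6 in SD2. Their median log2 change was -0.36 in SD1 and -0.25 in SD2, against -0.03 and 0.01 over all S. pombe probe sets. The list holds repressors and activators, so these counts carry no direction for flocculation. No regulator passed in SD2 against SD1.

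The homeodomain repressor gene yox1, which with its partner Nrm1 holds back G1-S transcription, had the largest fall of these regulators. It fell by 1.25 ± 0.25 in SD1 (limma adjusted p = 0.00391) and by 0.96 ± 0.25 in SD2 (0.0189), with means of 8.05 ± 0.16 in SD1, 8.34 ± 0.41 in SD2 and 9.30 ± 0.42 in WT. The SD2 call ended without SD2 array 2 or WT array 2, at adjusted p-values up to 0.0630. The adhesion genes ldb1 (also called adn1) and adn2, whose loss leaves cells less adhesive, stood lower as well. For ldb1 the fall was by 0.78 ± 0.14 in SD1 and by 0.84 ± 0.14 in SD2, and adn2 fell by 0.57 ± 0.11 in SD1 and was at -0.18 ± 0.11 in SD2.

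The forkhead factor gene sep1, needed for cell separation, fell by 0.65 ± 0.090 in SD1 and by 0.50 ± 0.090 in SD2. The sterol regulatory element binding protein genes sre1 and sre2 fell by 0.75 ± 0.11 and 0.74 ± 0.18 in SD1 and by 0.41 ± 0.11 and 0.60 ± 0.18 in SD2. Their SD2 calls ended without SD2 array 1, WT array 2 or WT array 3, that on sre1 also without SD2 array 3 and that on sre2 also without SD1 array 3 or SD2 array 2, at adjusted p-values up to 0.0815 for sre1 and 0.115 for sre2.

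The kinase module of Mediator, whose loss leads to flocculation in fission yeast, had all 4 genes measured. In SD1 1 of 4 fell, med13, by 0.59 ± 0.19 (limma adjusted p = 0.0331), and in SD2 0 of 4 passed, with 0 higher in either, beside 23.7% of all S. pombe probe sets lower in SD1 and 14.3% in SD2. The SD2 count was 1 risen with the array number as a block and 2 fallen without WT array 1, and med13 passed in SD2 after quantile normalization (adjusted p = 0.0261). The call on med13 ended without SD1 array 1, SD1 array 3, WT array 2 or WT array 3, at adjusted p-values up to 0.0995 and changes of -0.76 to -0.40 over the arrays left out. The other 3 genes lay between -0.43 and 0.16 over both deletions.

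**Figure D4:**
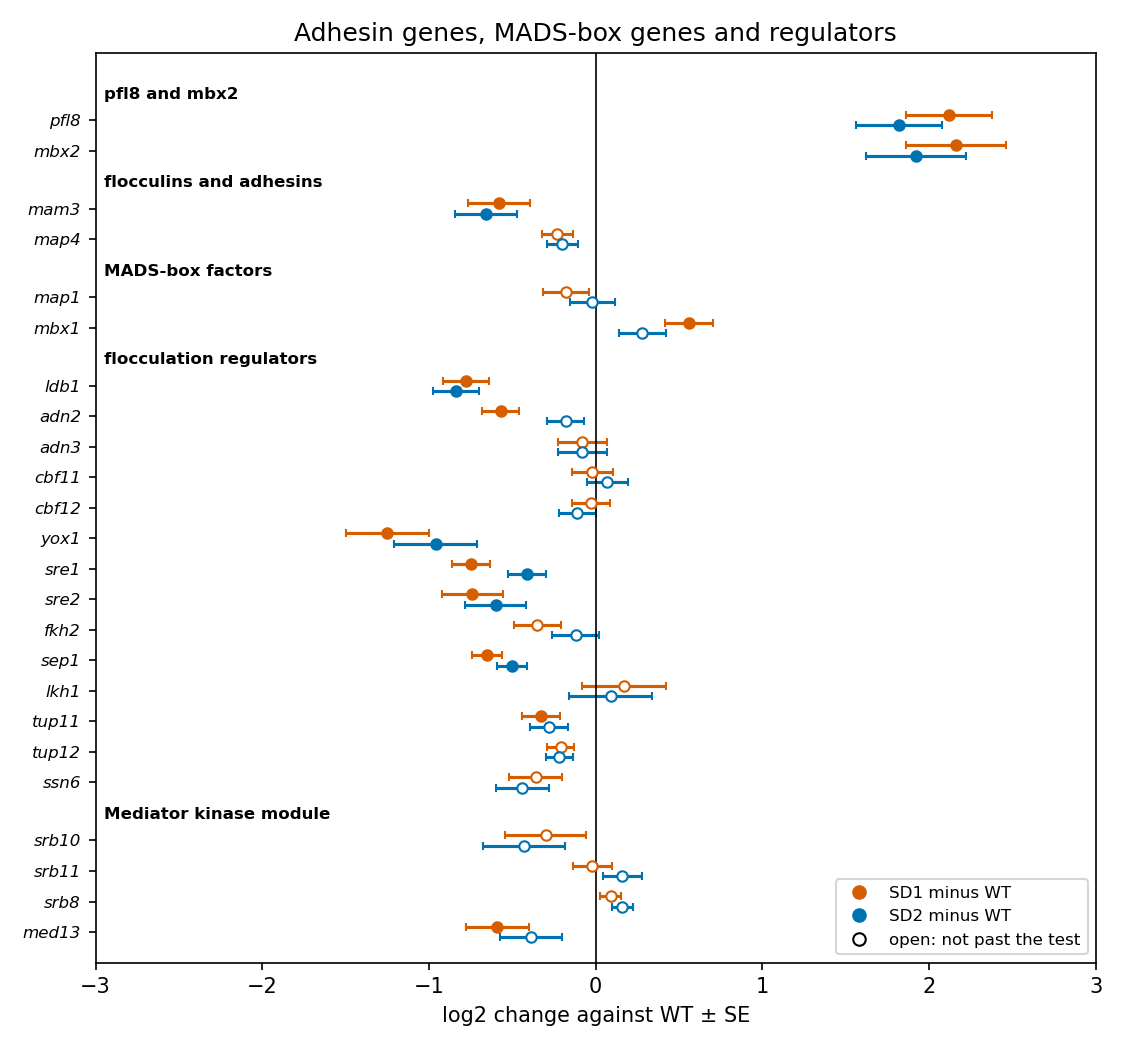
Log2 change against WT (x axis, ± SE) of pfl8, mbx2 and the measured adhesin, MADS-box, regulator and Mediator kinase module genes (y axis), in SD1 (orange) and SD2 (blue); open points did not pass an adjusted p under 0.05. Apart from pfl8 and mbx2, mbx1 in SD1 at 0.56 is the only filled point right of 0.

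Flocculins bind galactose-bearing glycans, so the enzymes that place galactose and pyruvate on surface glycans were read beside pfl8. Of 12 measured genes 2 rose and 1 fell in SD1, and 1 rose and 2 fell in SD2, with medians of 0.14 in SD1 and -0.01 in SD2. Over all S. pombe probe sets 19.5% rose and 23.7% fell in SD1, and 17.6% rose and 14.3% fell in SD2, so these shares lay near or below them. With the array number as a block 4 rose and 1 fell in SD1, where 787 and 969 of all 2937 probe sets were called higher and lower. The galactosyltransferase gene gmh1 was 5.75-fold lower in SD1 (log2 -2.52 ± 0.31) and 3.87-fold lower in SD2 (-1.95 ± 0.31). The gene gms1 for the transporter that brings UDP-galactose into the Golgi rose by 0.52 ± 0.083 in SD1 and by 0.40 ± 0.083 in SD2. A further galactosyltransferase gene, gmh2, rose by 0.32 ± 0.080 in SD1 and was at 0.09 ± 0.080 in SD2. The pyruvyltransferase gene pvg1 was at -0.19 ± 0.13 in SD1 and fell by 0.43 ± 0.13 in SD2 (limma adjusted p = 0.0348). That call ended without WT array 1, WT array 3 or any 1 SD2 array, at adjusted p-values up to 0.109. Calls in this list thus ran in both directions.

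Of 17 measured genes for enzymes of the wall glucans to which adhesins are anchored, 2 rose and 3 fell in SD1, and 1 rose and 2 fell in SD2. The medians were 0.12 in SD1 and -0.05 in SD2, and the shares lay at or below those of all S. pombe probe sets (19.5% higher and 23.7% lower in SD1, 17.6% and 14.3% in SD2). With the array number as a block 7 rose and 3 fell in SD1, and 4 rose and 4 fell in SD2. The block also raised the calls over all 2937 S. pombe probe sets, to 787 higher and 969 lower in SD1. In SD2 they were 764 higher and 694 lower. The glucosidase gene exg3 fell by 1.06 ± 0.12 in SD1 and by 0.58 ± 0.12 in SD2, and the glucanosyltransferase gene gas1 rose by 0.61 ± 0.14 in SD1 and by 0.45 ± 0.14 in SD2 (limma adjusted p = 0.0419). The SD2 call on gas1 ended without any 1 of 7 arrays, the exceptions being SD1 array 1 and WT array 1, at adjusted p-values up to 0.115. In SD1 gas2 fell by 0.34 ± 0.081, exg2 fell by 0.34 ± 0.091 and the glucan synthase gene bgs3 rose by 0.42 ± 0.12, the call on exg2 ending without SD1 array 3 or WT array 3 and that on bgs3 without SD1 array 2, SD1 array 3, WT array 1 or WT array 2. In SD2 adg2 fell by 0.73 ± 0.22 (limma adjusted p = 0.0369), and this call ended without SD1 array 2, SD2 array 2, SD2 array 3, WT array 1 or WT array 2.

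The pattern of each gene over the 9 arrays was compared with that of the other 2916 probe sets that have 1 gene symbol. The measure was the root mean square difference, in log2 units, between values centred on each probe set's own mean. For mbx2 the nearest probe set was that of pfl8, at 0.288 against a median of 1.04 over all probe sets compared. Next came mug115 (0.302), cnp3 (0.327), rrp8 (0.329) and rpa12 (0.363). For pfl8 the nearest were cnp3 (0.229), ade9 (0.259), rrp8 (0.261), grn1 (0.265) and arx1 (0.265), with mbx2 at rank 11 and a median of 1.00 over all.

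Several of those near genes have known roles tied to ribosomal RNA, the nucleolus or the ribosome, and others do not. The gene cnp3 encodes an inner kinetochore protein, ade9 an enzyme of folate metabolism, rrp8 an rRNA methyltransferase, grn1 a nucleolar GTPase, arx1 a factor for export of the large ribosomal subunit and rpa12 a subunit of RNA polymerase I. All 7 rose in both deletions, by 1.66 to 2.04 in SD1 and by 1.24 to 1.87 in SD2, and mug115 came closest to mbx2 in size (2.04 in SD1 and 1.87 in SD2). Over all S. pombe probe sets 19.5% were called higher in SD1 and 17.6% in SD2. The 7 genes were picked for their likeness to pfl8 or mbx2, so their rises largely follow from that choice. Because values were compared over all 9 arrays, a like size of change between the deletions and WT already gives a small distance. With values centred within each array number, pfl8 was the 2nd nearest to mbx2 and mbx2 the 10th nearest to pfl8. That centring keeps the differences between strains, so a like size of change still gives a small distance there.

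The genes that flank pfl8 and mbx2 in the annotation were read to see whether neighbours moved as well, a choice made after the values were seen. The reference annotation gives gene order for assembly ASM294v3, and the build used for the array is not given in the sources used here, so no positions are stated. Of the 16 protein-coding genes within 8 places of pfl8 on chromosome I, 4 had a named probe set. In SD1 2 of the 4 rose and 1 fell, and in SD2 1 rose and 1 fell, a count too small to read against the 19.5% of all probe sets higher and 23.7% lower in SD1 and the 17.6% and 14.3% in SD2.

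The transporter gene str3, 3 places from pfl8 and part of the iron acquisition genes, averaged 9.56 in SD1, 6.82 in SD2 and 4.10 in WT. It was below background on all WT arrays, so its rise was at least 20.7-fold in SD1 and at least 3.11-fold in SD2 (limma adjusted p = 0.000244 and 0.00975). The hexose transporter gene ght3, 5 places away on the same side, fell by 2.69 ± 0.26 in SD1 and by 3.42 ± 0.26 in SD2. Directly next to pfl8, isp3, which encodes a protein of the spore surface, was at 1.08 ± 0.76 in SD1 and 0.93 ± 0.76 in SD2 and did not pass (limma adjusted p = 0.287 and 0.394). With the array number as a block it passed in both (0.00747 in SD1 and 0.0172 in SD2), and leaving out 1 array gave 0.47 to 1.64 in SD1 and 0.23 to 1.49 in SD2, the lowest without SD1 array 1 and without SD2 array 1. On the other side mfs2, 8 places away, rose by 1.02 ± 0.16 in SD1 and was at 0.40 ± 0.16 in SD2, where it passed with the block (0.0287).

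Around mbx2 on chromosome II, 12 of 16 neighbours were measured. In SD1 1 rose and 2 fell, and in SD2 1 rose and 1 fell, shares below those over all probe sets (19.5% and 23.7% in SD1, 17.6% and 14.3% in SD2). The zinc transporter gene zrt1, 6 places away, rose by 0.96 ± 0.12 in SD1 and by 0.63 ± 0.12 in SD2. The gene set6, 8 places away on the other side, fell by 0.64 ± 0.095 in SD1 and by 0.33 ± 0.095 in SD2, and the alpha-glucan synthase homologue gene mok13 fell by 0.47 ± 0.17 in SD1 (limma adjusted p = 0.0467). In SD2 mok13 was at -0.41 ± 0.17 (limma adjusted p = 0.0896), and passed with the block (0.000931). The SD1 call on mok13 ended without any 1 of 7 arrays and the SD2 call on set6 without any 1 of 6, among them all 3 arrays of the deletion strain, WT array 2 and WT array 3 for each, with SD2 array 2 and SD2 array 3 for mok13 and SD1 array 3 for set6. The adjusted p-values reached 0.153 for mok13 and 0.0848 for set6. The ribosomal protein gene rps1801, directly beside mbx2, was at 0.02 ± 0.090 in both deletions, and pop7, 2 places away, was at -0.03 ± 0.16 in SD1 and 0.04 ± 0.16 in SD2.

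**Figure D5:**
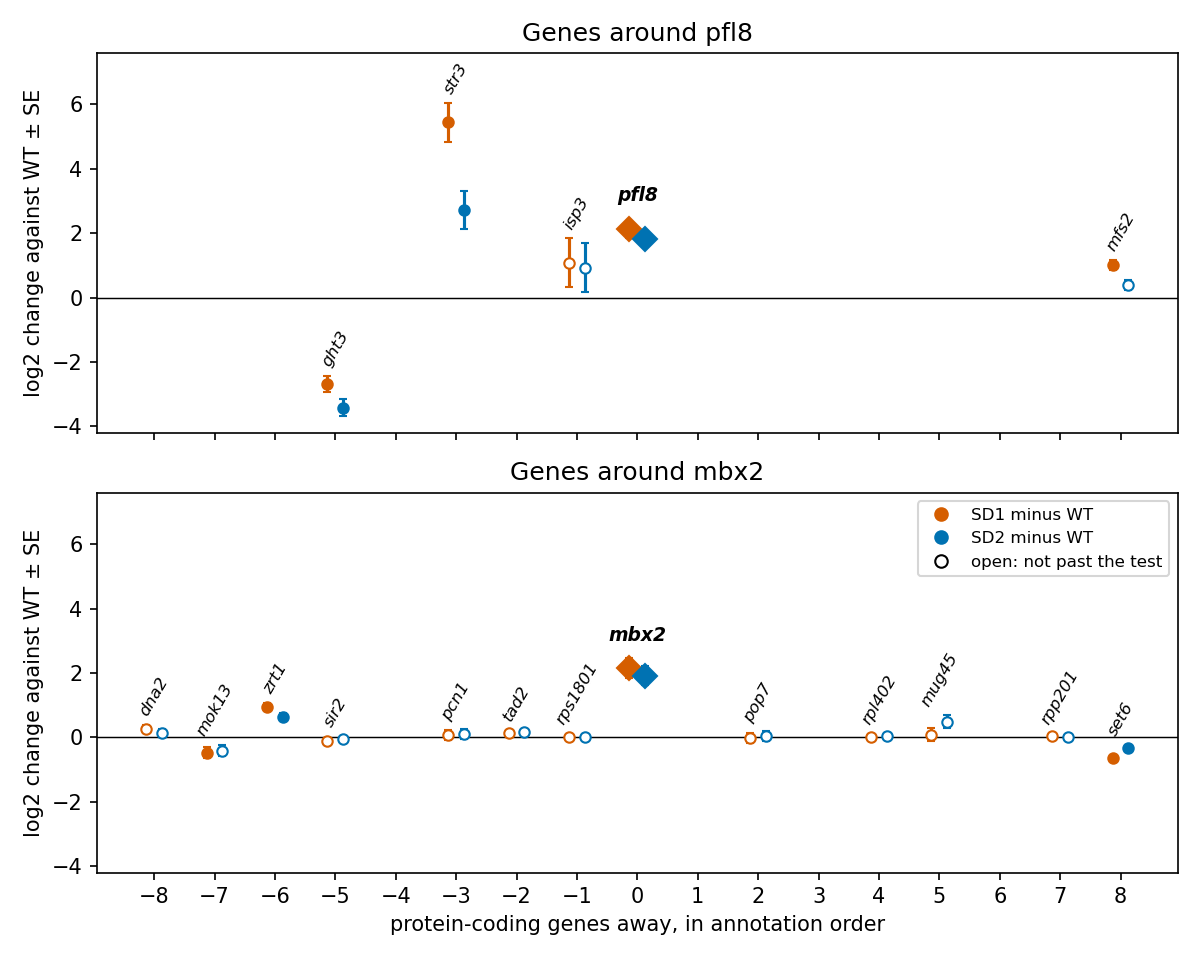
Log2 change against WT (y axis, ± SE) of measured protein-coding genes by their place in annotation order from pfl8 (top) and mbx2 (bottom), in SD1 (orange) and SD2 (blue), with diamonds for pfl8 and mbx2 and open points for genes that did not pass. The plotted values of str3 (5.45 and 2.72) are fitted values against a WT mean below background, while rps1801 beside mbx2 lies at 0.02.

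Both genes overlap annotated long non-coding RNAs. In the reference annotation SPNCRNA.607 covers 81.8% and SPNCRNA.2046 covers 10.8% of pfl8, and SPNCRNA.1626 covers the whole of mbx2. The probes' positions and the strand of these RNAs were not used here, so signal from the coding transcript and from an overlapping RNA on its strand cannot be told apart.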

How the data were processed

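Total RNA (Trizol) was labelled as biotinylated cRNA from 500 ng per sample and hybridised to Affymetrix yeast arrays, per the labels' protocols. The deposited values are log2 expression values per probe set, made with RMA and Partek per the submitters' processing notes. Versions, background correction and joint normalization are not given in the sources used here.

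Of 10928 probe sets, 2937 were named as S. pombe (2917 with 1 symbol, 20 with several, which named no gene). Of these, 2934 were matched to assembly ASM294v3 by gene number and 3 by symbol. A further 2601 belonged to S. cerevisiae and 5177 had no name. How many of the unnamed ones are for S. pombe was not determined. Shares and ranks over all S. pombe probe sets therefore cover the 2937 named ones only. Each gene was read from its brightest probe set.

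Strains were compared with limma 3.58.1 in R 4.3.3 (1 mean per strain over 9 arrays, no block, eBayes) with Benjamini-Hochberg adjustment over the 2937 probe sets of each comparison, calls being made at an adjusted p under 0.05. The fit was tested on simulated data. Lists were counted without a set test. Pfl8, mbx2 and the lists were chosen with earlier results of these data known. Named were all measured adhesin and MADS-box genes, up to 6 called genes of each other list, and the 5 nearest in pattern to each gene. The genes flanking both were chosen after their values were seen.

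Identical values per pair of arrays numbered 3934 to 4218 within number 1, 74 to 80 within number 2 and 168 to 353 within number 3. Arrays with different numbers shared 0 to 4. The numbers therefore look like processing sets, and differences are also given within them. Deviations from strain means correlated above 0.1 in 8 of 9 same-number pairs (-0.10 to 0.87). Pairs of different number ran from -0.87 to 0.75. Their highest value exceeded those within number 2 (-0.10 to 0.28) and number 3 (0.33 to 0.62). The correlations therefore do not by themselves set those numbers apart. Within number 1 they ran from 0.79 to 0.87, above every pair of different number. Because the criterion for a paired fit was that all same-number pairs correlate above 0.1, the number entered only as an alternative block. Alternatives tried were a replicate block, array centring, quantile normalization, a background filter, a trended robust variance prior, fits on the compared strains or all probe sets, and leaving out each array. A promoter motif search was not run, as promoter sequences were not used here.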

Additional observations from a re-analysis of the deposited data

How the results depend on the processing

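The calls on pfl8 and mbx2 against WT kept their direction and side of the threshold under all 16 alternatives for each deletion and 15 for both together. The labels number the arrays alike, and with the replicate block the adjusted p-values were 0.00111 (pfl8) and 0.000519 (mbx2) in SD1, and 0.00293 and 0.00128 in SD2. Permuting within the block gave p = 0.037 for each gene, the smallest its 27 exact arrangements allow. After adjustment over the 3 tests this permutation p was 0.0556 for each gene, against 0.0179 without the block. It lay above 0.05, so neither gene passed the blocked permutation test. With the permutation p of mbx2 minus pfl8 at 0.778 in the block, 0.0556 was the lowest adjusted value open to the 2 genes. The blocked test therefore could not pass at any size of change, and it decides nothing on either gene. In SD2 minus SD1, mbx2 ran from -0.43 to 0.02 over the arrays left out, and mbx2 minus pfl8 over both deletions from -0.13 to 0.30, including -0.01. The block raised the called probe sets to 1458 from 937 in SD2 against WT and to 25 from 5 in SD2 against SD1, where leaving out arrays gave 4 to 10. Among genes followed singly through the alternatives, calls gained under the block were isp3 in both deletions, map4 in SD1 (0.0388) and mfs2 (0.0287), mok13 (0.000931), bgs3 (0.0124) and gas2 (0.0159) in SD2. Other list members also gained calls, and the regulators fallen in SD1 went from 7 to 10. Over all S. pombe probe sets those called lower in SD1 went from 696 to 969. Calls gained in SD2 under quantile normalization were med13 (0.0261), mok13 (0.0210) and gas2 (0.0286), and under array centring mok13 (0.0392) and bgs3 (0.0410). Fitting only the compared strains gained adg2 in SD1 (0.0388). Over the arrays left out, list medians in SD1 ran from -0.42 to -0.35 (regulators), -0.28 to -0.06 (Mediator module), 0.09 to 0.18 (galactosylation) and 0.04 to 0.13 (wall glucans). In SD2 they ran from -0.50 to -0.35 (adhesins) and 0.07 to 0.21 (MADS-box). Array centring gave -0.31 for regulators and 0.18 for galactosylation in SD1. Genes near 0 changed sign: map1 in SD2 (-0.10 to 0.12), map3 (-0.09 to 0.06 in SD1, -0.03 to 0.16 in SD2, and 0.04 in SD1 with array centring or quantile normalization) and rpl3202 in SD1 (-0.06 to 0.11). Adjusting over all 10928 probe sets ended the calls on mam3 (adjusted p = 0.0557), med13 (0.0572) and mok13 (0.0847) in SD1 and on pvg1 (0.0639), sre2 (0.0612), set6 (0.0628), gas1 (0.0744) and adg2 (0.0601) in SD2. Fitting only the compared strains ended those on mok13 in SD1 (0.0613) and on sre1, sre2, set6, gas1 and adg2 in SD2 (0.0511 to 0.0756). Array centring ended those on gas2 in SD1 (0.0669) and on gas1 (0.0793) and adg2 (0.0504) in SD2, and quantile normalization that on mfm1 in SD2 (0.0640). The cause of these shifts was not tested. The alternatives for genes other than pfl8 and mbx2 were chosen after seeing the data.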
